A study of Homo sapiens with 8 samples.

Results

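The nuclear genes for the subunits of respiratory complexes I to IV were examined in A549 cells, an established human lung adenocarcinoma line. A gene was a member when it was coding, lay on a nuclear chromosome and had a GENCODE symbol beginning with NDUFA, NDUFB, NDUFC, NDUFS or NDUFV (assembly factors NDUFAF left out), UQCR, COX4I, COX5, COX6, COX7 or COX8, or was SDHA, SDHB, SDHC or SDHD. This gave 70 of the 60291 gene identifiers in the count files: 40 for complex I, 4 for complex II, 9 for complex III and 17 for complex IV. The NFE2L2 siRNA group held 3 libraries, each from a different duplex against NFE2L2 (duplexes 1, 2 and 3) transfected once. The control siRNA group held 4 libraries, 2 from each of 2 non-targeting duplexes, and 1 further library came from mock-transfected cells. All came from the same line and were harvested 48 h after transfection of 250000 cells, with 5 nmol of siRNA in the siRNA groups. A549 carries a KEAP1 defect that keeps NFE2L2 active, so the controls are cells with an active factor. Because each NFE2L2 duplex was used once, the effect of a duplex and that of a transfection cannot be told apart, and p-values measure only the spread between these transfections.

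The respiratory chain passes electrons from NADH (complex I) and succinate (complex II) through coenzyme Q to complex III, and by cytochrome c to complex IV, where oxygen is reduced. Complexes I, III and IV pump protons, and the gradient drives ATP synthase. Some subunits of the proton pumps are encoded in mitochondrial DNA, while all of complex II and most other subunits come from the nucleus. NFE2L2 (also called NRF2) is a transcription factor that binds antioxidant response elements (AREs) with small MAF partners and is best known for its control of redox and detoxification genes. It differs from nuclear respiratory factor 1 (NRF1) and from the ETS factor GABP, older name nuclear respiratory factor 2, which are known regulators of respiratory chain genes, as is YY1.

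The promoters give the sequence context for these factors. RefSeq promoters (GRCh38.p14, 250 bases before to 50 bases after the gene start) were matched by symbol to 53 of the 64 members with enough reads for testing. The letters TGACNNNGC, the ARE core, occurred on either strand in 9 of the 53 (17.0%), against 14.8% of 11120 promoters of tested coding genes and 13.6% of all 27305 promoters. The NRF1 core GCGCANGCG was found in 16 (30.2%, against 14.1% and 8.05%), the ETS letters CCGGAAGT in 8 (15.1%, against 8.30% and 4.44%) and the YY1 letters AAGATGGC in 8 (15.1%, against 5.04% and 3.03%). A few promoters are shown, with the matches in capitals as read on the gene's strand, some being the reverse complement of the letters above. NDUFA2 (chr5:140647581-140647880, minus strand) and NDUFB10 (chr16:1959288-1959587, plus strand) are the members past the threshold of 0.01 between the control duplexes, described further on, and NDUFA3 (chr19:54102605-54102904, plus strand) and UQCRC1 (chr3:48609597-48609896, minus strand) are among the members that hold 3 of the 4 motifs, as are NDUFA9 and UQCR11.
NDUFA2: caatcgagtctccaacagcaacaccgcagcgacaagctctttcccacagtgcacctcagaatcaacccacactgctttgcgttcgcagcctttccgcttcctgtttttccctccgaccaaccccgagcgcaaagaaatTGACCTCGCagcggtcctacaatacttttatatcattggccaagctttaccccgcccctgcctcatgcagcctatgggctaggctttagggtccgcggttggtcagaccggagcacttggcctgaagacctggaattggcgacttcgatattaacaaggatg
NDUFB10: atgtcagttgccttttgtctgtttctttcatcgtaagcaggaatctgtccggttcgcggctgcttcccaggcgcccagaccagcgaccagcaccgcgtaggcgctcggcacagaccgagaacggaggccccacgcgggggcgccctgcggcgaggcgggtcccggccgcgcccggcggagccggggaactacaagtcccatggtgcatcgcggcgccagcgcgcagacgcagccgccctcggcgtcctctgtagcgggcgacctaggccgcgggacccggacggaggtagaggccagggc
NDUFA3: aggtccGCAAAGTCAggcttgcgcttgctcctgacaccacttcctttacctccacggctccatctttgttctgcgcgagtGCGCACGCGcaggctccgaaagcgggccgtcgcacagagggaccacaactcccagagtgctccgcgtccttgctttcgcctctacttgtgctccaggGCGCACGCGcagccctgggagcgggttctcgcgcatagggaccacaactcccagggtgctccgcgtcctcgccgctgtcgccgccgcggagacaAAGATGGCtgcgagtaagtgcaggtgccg
UQCRC1: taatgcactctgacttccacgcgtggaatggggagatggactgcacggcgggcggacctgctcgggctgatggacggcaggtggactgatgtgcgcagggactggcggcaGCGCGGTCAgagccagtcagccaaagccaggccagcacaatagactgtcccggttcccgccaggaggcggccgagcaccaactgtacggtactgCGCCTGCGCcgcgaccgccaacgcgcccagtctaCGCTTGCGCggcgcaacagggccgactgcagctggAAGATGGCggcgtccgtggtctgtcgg
In NDUFA2 the ARE core lies at bases 139 to 147 of the window. NDUFB10 holds none of the 4 motifs in these letters. NDUFA3 has the ARE core at bases 7 to 15, NRF1 cores at 81 to 89 and 178 to 186 and the YY1 letters at 272 to 279, and UQCRC1 has the ARE core at 111 to 119, NRF1 cores at 205 to 213 and 239 to 247 and the YY1 letters at 274 to 281. None of these matches overlap each other. A match is a description of the letters and not a binding site.

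Between 35525141 and 41645410 reads were counted on genes in the 7 siRNA libraries, with TMM scaling factors from 0.957 to 1.02. The members took 0.581% to 0.691% of these reads. For 61 of them the highest count among the 7 libraries was 500 or more. A count of 0 allows a share of up to 7.20e-06% to 8.44e-06% of a library (3 counts, counting error only). The knockdown was visible in every library: the NFE2L2 gene had 1178, 2044 and 1262 reads with duplexes 1, 2 and 3 against it, and 3974 to 4227 reads in the controls (log2 fold change −1.55). NQO1, a standard NFE2L2 target, was at −2.19. Epithelial markers were present, with at least 111143 reads on KRT8 and on KRT18 in every library and EPCAM at 142 to 427 reads, while the blood markers PTPRC and CD3E and the muscle markers MYH7, CKM and ACTN2 never exceeded 3 reads and VWF, of endothelium, never 5. CPM below are TMM-scaled reads per 1000000 gene counts. Of the 3 stromal markers, DCN had at most 1 read and PDGFRB at most 13, and ACTA2 carried the sum, which was 10.8 to 12.6 CPM in the NFE2L2 libraries and 6.73 to 8.34 CPM in the controls. The summed level of the 5 epithelial markers was 7325 to 11675 CPM against 7622 to 8369 CPM, with CDH1 (0.74), KRT19 (0.88) and EPCAM (0.80) at positive log2 fold changes that did not pass the threshold. The part of these markers in the results was not tested.

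The main question was whether reduction of NFE2L2 was accompanied by altered subunit transcripts. None of the 64 tested members passed the threshold, an adjusted p under 0.01 in edgeR's quasi-likelihood test, whereas 491 of 17811 genes did (2.76%). None passed at 0.05 either, and 1 of the 64, NDUFV2, had an unadjusted p under 0.05, which 25% of all genes tested had. DESeq2 and limma-voom also called 0 members, with 1 and 2 at an unadjusted p under 0.05. The log2 fold changes had a median of −0.02 (0.01 over all genes tested), with 39 members lower and 25 higher. The 95% interval stayed within 1 log2 unit of 0 for 63 members, the exception being COX6B2, and within 0.5 for 57. In bulk RNA, fewer cells with a transcript and less transcript per cell cannot be told apart.

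**Figure D1:**
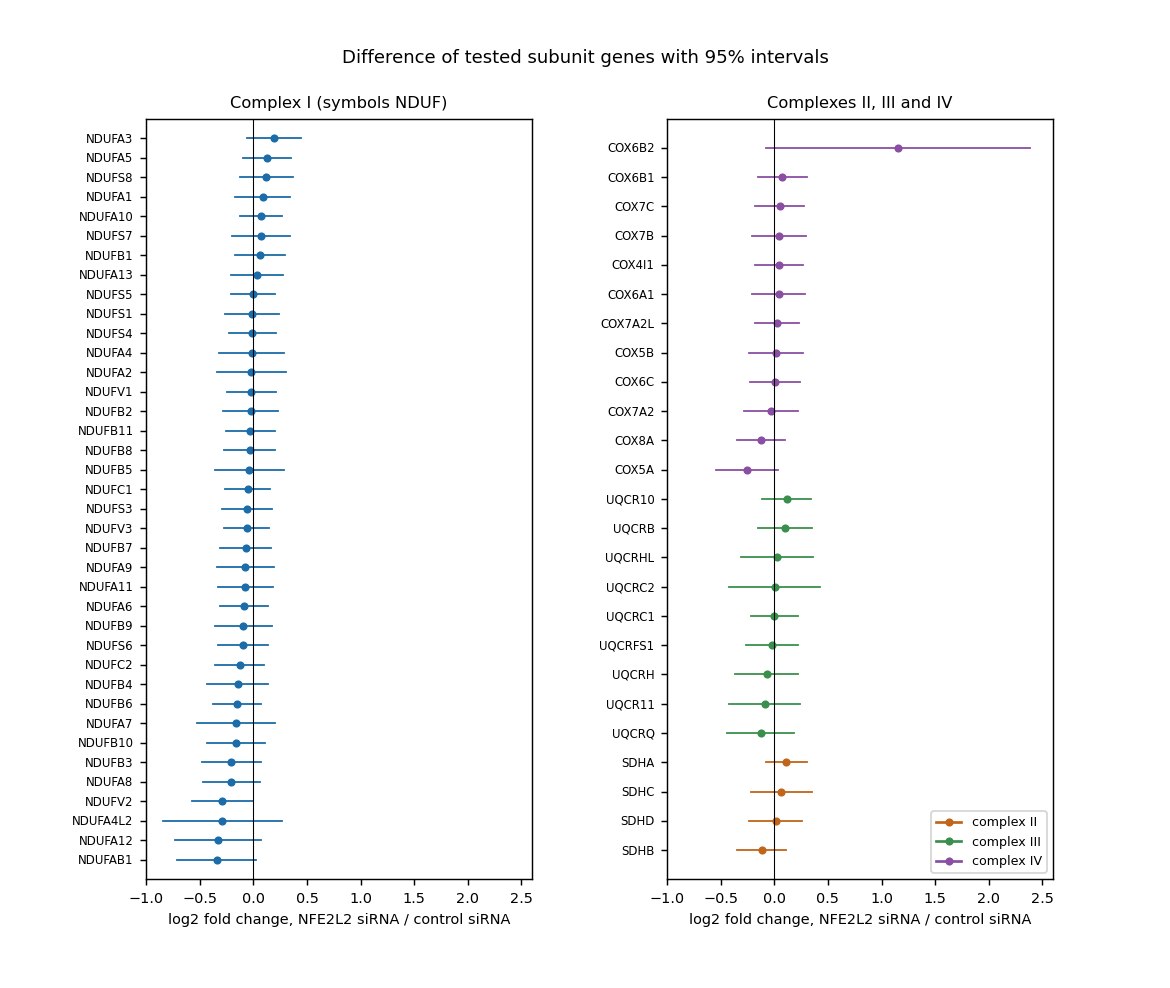
Log2 fold change of the tested members, 1 left out, between NFE2L2 siRNA (n = 3) and control siRNA (n = 4) on the x axis, by complex; points are edgeR estimates and lines are 95% intervals. Estimates lie between −0.34 and 0.19 apart from COX6B2 at 1.16, and the interval of NDUFV2 alone does not reach 0.

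Complex I, the NADH dehydrogenase, had 39 tested members, of which 30 were lower and 9 higher with a median log2 fold change of −0.05. Its nuclear core subunits carry the flavin and iron-sulphur centres. Those described here ranged from −0.29 for NDUFV2 to 0.12 for NDUFS8, with NDUFS1 at −0.01, NDUFV1 (which binds the flavin) at −0.02, NDUFS3 at −0.06 and NDUFS7 at 0.07. NDUFV2 (ENSG00000178127.8, chr18:9102628-9134343, plus strand, GRCh37), an iron-sulphur subunit of the NADH-binding module, had 23.7, 18.2 and 19.3 CPM with NFE2L2 duplexes 1, 2 and 3 and 28.2, 25.4, 23.2 and 22.8 CPM in the controls. The highest NFE2L2 library lay above the lowest control libraries, so the groups overlapped. The estimate was −0.29 log2 units (SE, the standard error, 0.127; adjusted p = 0.193). Of its exon bases 28.4% are shared with another gene on the same strand.

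Among the accessory subunits of complex I, NDUFAB1, the mitochondrial acyl carrier protein, had the lowest estimate (ENSG00000004779.5, chr16:23592335-23607637, minus strand). It stood at 78.7 CPM with NFE2L2 duplex 1, 53.4 with duplex 2 and 46.6 with duplex 3, against 79.0, 80.4, 68.0 and 74.0 in the controls. Duplex 1 thus lay inside the control range and the other two below it, and the estimate was −0.34 log2 units (SE 0.165, adjusted p = 0.233). Without duplex 1 it was −0.59 with adjusted p = 0.0118. NDUFA12 (ENSG00000184752.8, chr12:95289073-95397524, minus strand) is an accessory subunit that takes the place of an assembly factor late in assembly. It had 47.6, 26.5 and 42.9 CPM with NFE2L2 duplexes 1, 2 and 3 and 50.7, 54.0, 43.6 and 47.7 CPM in the controls. Here duplex 2 stood apart, and the estimate of −0.33 log2 units (SE 0.180, adjusted p = 0.290) became −0.13 without it.

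NDUFA3 had the highest estimate of complex I, 0.19 log2 units (SE 0.113, adjusted p = 0.326). It had 53.9, 49.5 and 47.1 CPM with the NFE2L2 duplexes and 50.3, 46.1, 39.0 and 40.2 CPM in the controls. All 3 NFE2L2 libraries were above both libraries of control duplex 2, and 1 of them was above both libraries of control duplex 1. The remaining accessory subunits lay between these values, among them NDUFA8 and NDUFB3, both at −0.21, and NDUFS5 at −0.00.

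NDUFA4, named as a complex I gene and now known as a subunit of complex IV, had 216, 169 and 148 CPM with the NFE2L2 duplexes and 184, 203, 164 and 167 CPM in the controls, a log2 fold change of −0.02. Its paralogue NDUFA4L2, known as a hypoxia-induced gene, was near the limit of the counts, with 0.363, 0.381 and 0.399 CPM against 0.402, 0.457, 0.540 and 0.470 CPM. It was the 1 member in which every NFE2L2 library lay below every control library, a pattern found in 11.4% of all genes tested, and no member had every NFE2L2 library above every control (11.9% of all genes). The other 63 members overlapped. The estimate for NDUFA4L2 was −0.29 log2 units, with adjusted p = 0.533 and an exact two-sided permutation p of 0.0571, the smallest that 3 against 4 libraries allow. Counting both genes under complex IV left medians of −0.05 for complex I (37 tested) and 0.02 for complex IV (14 tested).

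Complex II, succinate dehydrogenase, was measured in full. SDHA, the flavoprotein that oxidises succinate, had 177, 200 and 186 CPM with the NFE2L2 duplexes and 183, 178, 165 and 170 CPM in the controls. Its estimate of 0.11 log2 units (SE 0.0855, adjusted p = 0.460) was the highest of the complex. Pseudogenes of SDHA carried reads equal to 10.4% of those on the gene, so that its level is less certain than that of the other subunits. SDHB, the iron-sulphur subunit, had 79.6, 83.4 and 73.2 CPM against 92.8, 92.4, 75.3 and 81.4 CPM, an estimate of −0.12 log2 units (adjusted p = 0.517). The membrane anchors SDHC and SDHD were at 0.07 and 0.01. The NFE2L2 and control libraries overlapped for all 4 genes.

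Complex III, the cytochrome bc1 complex, had 9 tested members with a median log2 fold change of −0.00. UQCRFS1, the Rieske iron-sulphur protein, was at −0.02, and the core proteins UQCRC1 and UQCRC2 had folds of 1.00 and 1.00 between the group means. UQCRC2 (ENSG00000140740.6, chr16:21964609-21994981, plus strand) had the widest spread between NFE2L2 duplexes, as the ratio of highest to lowest, of the members with a mean of at least 500 reads. It stood at 303, 222 and 161 CPM with NFE2L2 duplexes 1, 2 and 3 and 264, 241, 202 and 206 CPM in the controls. Duplex 1 was above and duplex 3 below every control library, and the highest was 1.88 times the lowest. The interval was correspondingly wide, from −0.42 to 0.43. The small subunits UQCR10, at 0.11, and UQCRQ, at −0.13, had the highest and lowest estimates of the tested members. CYC1, cytochrome c1 of this complex, has a symbol outside the rule and was listed with the electron carriers. It had 167, 188 and 160 CPM with the NFE2L2 duplexes and 231, 240, 170 and 187 CPM in the controls. Its estimate was −0.27 log2 units (edgeR adjusted p = 0.245), below that of UQCRQ. Between the control duplexes CYC1 was at −0.39 in duplex 2 (edgeR adjusted p = 0.00654). UQCRHL is a near copy of UQCRH, and reads that fit both equally were not assigned to either, so both levels may be too low. UQCRH had a log2 fold change of −0.07 and UQCRHL one of 0.03.

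Complex IV, cytochrome c oxidase, had 12 tested members, 9 of them higher and 3 lower with a median of 0.03. COX4I1 (0.04) and COX5B (0.01), which surround the catalytic core encoded in mitochondrial DNA, were near 0. COX5A, also of this set, had 147, 139 and 109 CPM with the NFE2L2 duplexes and 173, 173, 140 and 143 CPM in the controls. The libraries of the 2 groups overlapped, and the estimate of −0.25 log2 units (SE 0.130, adjusted p = 0.262) was the lowest of the complex. The ubiquitous isoforms COX6A1 (0.04), COX6B1 (0.07), COX7A2 (−0.03) and COX7B (0.05), and COX7A2L (0.03), which is known for its role in respiratory supercomplexes, stayed close to the median, as did COX7C (0.05) and COX6C (0.00). COX8A was lower, at −0.13 with adjusted p = 0.483.

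COX6B2, the testis isoform of COX6B (ENSG00000160471.8, chr19:55860674-55866087, minus strand), varied most between libraries. It had 24 reads with NFE2L2 duplex 1, 177 with duplex 2 and 109 with duplex 3. In the controls it had 26 and 24 reads with duplex 1 and 70 and 51 with duplex 2, and the mock library had 23. NFE2L2 duplex 1, control duplex 1 and the mock thus lay within a few reads of each other, and NFE2L2 duplexes 2 and 3 and control duplex 2 were higher. The estimate of 1.16 log2 units (SE 0.551, adjusted p = 0.226) was the largest of any tested member, and it was 0.48 without NFE2L2 duplex 2. At 0.576 to 4.50 CPM over the 8 libraries it was a minor transcript, and 29.1% of its exon bases are shared with another gene on the same strand.

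**Figure D2:**
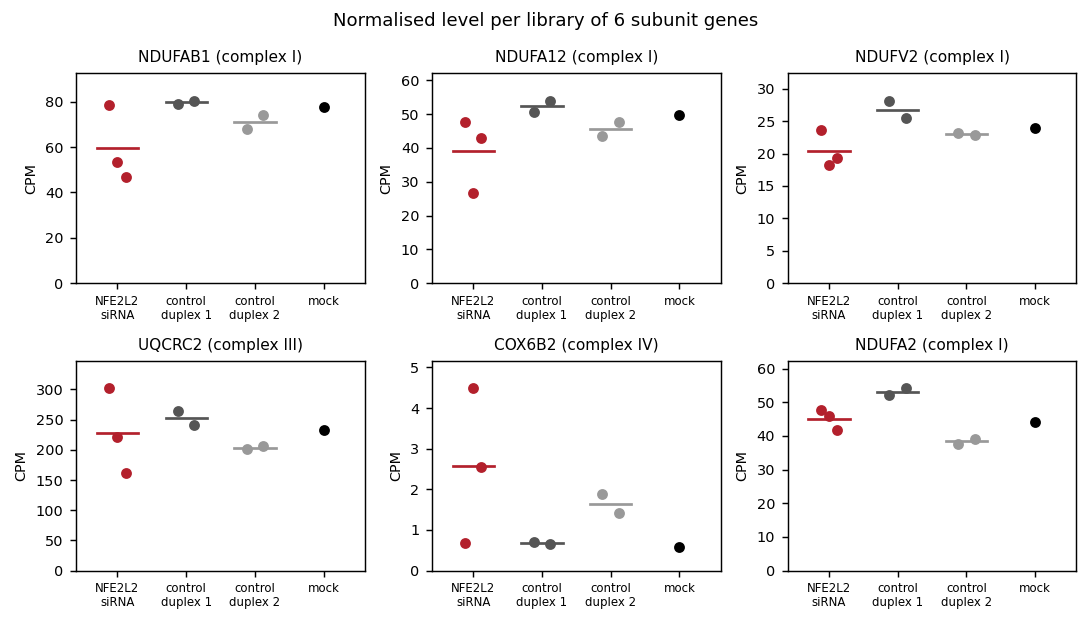
Normalised level (CPM, linear y axis from 0) of 6 members in each library; points are libraries and horizontal lines are the means of the NFE2L2 siRNA libraries and of each control duplex, with the mock as a black point. In NDUFAB1 and UQCRC2 the NFE2L2 libraries spread further than the controls, and in NDUFA2 the control duplexes lie on either side of the NFE2L2 libraries.

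Another 6 members had too few reads for testing, 5 of them isoforms of complex IV. COX6A2 (heart and muscle) and COX7B2 had 0 reads in every library, COX4I2 (lung and hypoxia) had 0 in the 7 siRNA libraries and 1 in the mock, and COX7A1 (muscle) had 1 read with NFE2L2 duplex 3. COX8C had 1 read in a control library. NDUFC2-KCTD14, a readthrough gene, had 1 read with NFE2L2 duplex 2, and 99.6% of its exon bases are shared with NDUFC2 or KCTD14. Per kilobase of the canonical transcript, and against a floor of 3 reads over the 4 control libraries, COX4I1 was at least 9789-fold above COX4I2, COX6A1 at least 4804-fold above COX6A2, COX7A2 at least 3883-fold above COX7A1 and COX7B at least 2104-fold above COX7B2. COX6B1 was 728 times COX6B2 (95% counting interval 626 to 850), and NDUFA4 was 178 times NDUFA4L2 (141 to 229). The ubiquitous isoform was thus the more abundant transcript of each of these pairs in the controls.

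In reads per kilobase of the union of annotated exons per 1000000 gene counts, the highest levels in the control libraries were those of NDUFA1 in complex I (297 ± 29.8; SD, n = 4), SDHB in complex II (34.96 ± 3.51), UQCRH in complex III (118 ± 10.1) and COX8A in complex IV (345 ± 31.3). The lowest tested members, in the same order of complexes, were NDUFA4L2 (0.167 ± 0.0202), SDHA (19.96 ± 0.913), UQCRHL (5.99 ± 0.367) and COX6B2 (0.312 ± 0.161). Medians over tested members, averaged over the 4 libraries, were 20.4, 23.7, 49.8 and 76.0 for complexes I, II, III and IV. These levels depend on the transcript length used, and the lengths come from a later annotation than the counts. Per kilobase of the canonical transcript the medians were 65.1, 56.8, 86.9 and 208, COX6B1 (538 ± 42.8) led complex IV ahead of COX8A (345 ± 31.3), and SDHC (34.6 ± 3.05) was the lowest of complex II. UQCRB (24.3 ± 1.68) and UQCR11 (24.3 ± 3.94) were then the lowest of complex III and differed by less than their spread.

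**Figure D3:**
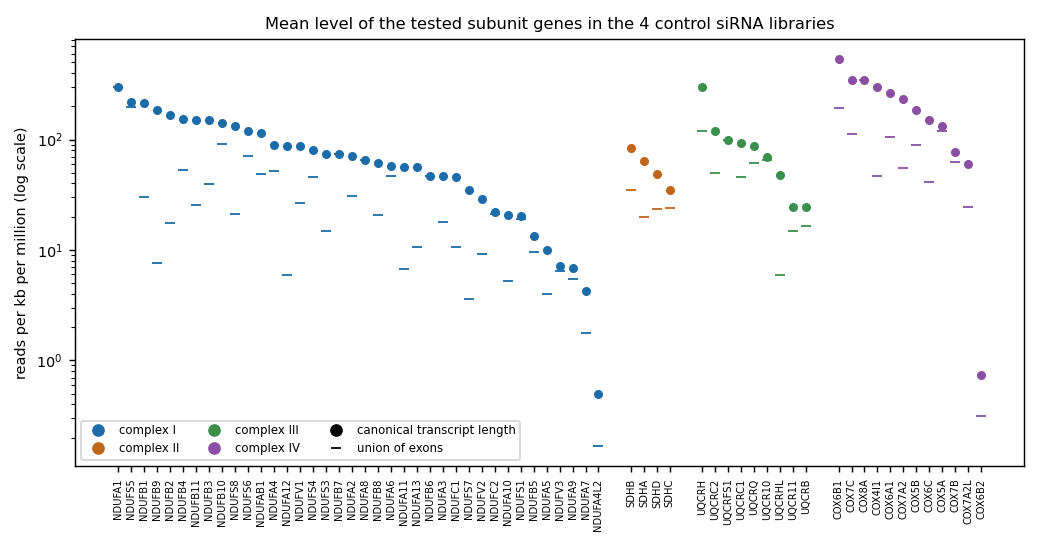
Mean level of the tested members, 1 left out, in the 4 control siRNA libraries, in reads per kilobase per 1000000 gene counts (log y axis), by complex and in descending order; circles use the canonical transcript and dashes the union of exons. Complex IV holds the highest circle, COX6B1 at 538, and NDUFA4L2 and COX6B2 lie below 1.

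The members also differed between the libraries of each group. Relative to the mean of the controls, the median member stood at 0.11 (log2) with NFE2L2 duplex 1, −0.09 with duplex 2 and −0.11 with duplex 3. The control libraries of duplex 1 stood at 0.08 and 0.10, those of duplex 2 at −0.11 and −0.06, and the mock at 0.01. The medians of the NFE2L2 libraries and of the controls thus covered nearly the same range. NFE2L2 duplex 1 was the highest of the 3 NFE2L2 libraries in 51 of 64 members, against 36.2% of all genes, and duplex 3 was the lowest in 38, against 29.3%. The split was widest in complex III, whose median was 0.22 with duplex 1 and −0.23 with duplex 3. The summed level of its members was 1502, 1244 and 1116 CPM with NFE2L2 duplexes 1, 2 and 3 and 1385, 1372, 1199 and 1213 CPM in the controls.

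Within the NFE2L2 group the SD of a member (log2 scale) had a median of 0.17, against 0.11 within the controls, and was the larger in 44 of 64 members. Over all genes tested the medians were 0.19 and 0.12 and the share was 70.0%. Over genes with a mean of at least 500 reads the medians were 0.18 and 0.09 and the share was 77.1%. The wider spread of the NFE2L2 libraries was thus not limited to the members. NDUFB5, an accessory subunit of the membrane arm, shows a duplex with a value of its own, at 65.7, 41.2 and 56.8 CPM with NFE2L2 duplexes 1, 2 and 3 and 57.8, 59.3, 53.6 and 53.7 CPM in the controls. Duplex 1 lay above and duplex 2 below every control library. The highest NFE2L2 library was over 1.5 times the lowest in 6 members (NDUFAB1, NDUFA12, NDUFB5, UQCRC2, UQCRHL and COX6B2), and duplex 1 was the highest in all of these but COX6B2. The mock library lay within the range of the controls in 52 of 64 members, nearer to control duplex 1 in 37 and to duplex 2 in 27.

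The summed level of the members of complex I was 2986, 2563 and 2522 CPM with NFE2L2 duplexes 1, 2 and 3, and 2934, 2962, 2549 and 2605 CPM in the controls. That of complex IV was 2064, 1763 and 1726 CPM against 1950, 1983, 1700 and 1760 CPM, and that of complex II was 390, 389 and 361 CPM against 390, 389, 343 and 358 CPM. In complexes I and IV duplex 1 stood with control duplex 1 and duplexes 2 and 3 with control duplex 2, whereas in complex II NFE2L2 duplexes 1 and 2 both stood with control duplex 1.

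**Figure D4:**
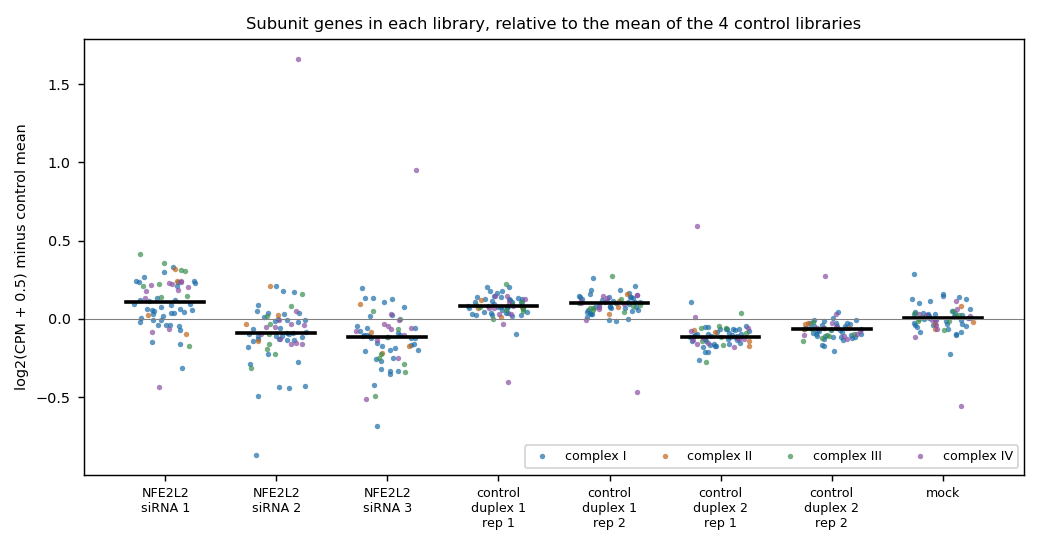
Difference of each tested member from the mean of the 4 control libraries, in log2(CPM + 0.5) on the y axis, for each library on the x axis; points are genes coloured by complex and bars are medians. The medians of NFE2L2 duplex 1 (0.11) and of both libraries of control duplex 1 lie above 0, and those of NFE2L2 duplexes 2 and 3 and of control duplex 2 lie below 0.

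The 4 control libraries allow a comparison of the 2 non-targeting duplexes. Both libraries of duplex 2 lay below both libraries of duplex 1 in 59 of 64 members (92.2%), against 28.7% of all genes tested and 37.8% of the genes with a mean of at least 500 reads. In the fit, 61 members were lower and 3 higher in duplex 2, with a median log2 fold change of −0.17 against 0.01 over all genes and −0.02 over genes with at least 500 reads. The shift was of similar size in the 4 complexes, with medians of −0.17, −0.15, −0.16 and −0.18 in complexes I, II, III and IV. Other lists of mitochondrial genes were also at negative medians in duplex 2: −0.17 for ATP synthase, −0.15 for the TCA cycle and −0.11 for the mitochondrial ribosome. Assembly factors were at −0.12, −0.13, −0.12 and −0.09 for complexes I, II, III and IV. The electron carriers and coenzyme Q enzymes (−0.06) and the regulators (−0.02) were nearer to 0, and the subunits encoded in mitochondrial DNA were at 0.05. The 3 higher members were COX6C, NDUFA4L2 and COX6B2. The labels do not give the time or batch of the transfections, and a part of either in the difference between the duplexes was not tested.

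At the threshold of 0.01, 2 of the 64 members were called between the control duplexes, both lower in duplex 2, against 3.28% of 17261 genes. NDUFA2, an accessory subunit of complex I (ENSG00000131495.4, chr5:140018325-140027356, minus strand), had 52.1 and 54.3 CPM with duplex 1 and 37.6 and 39.1 CPM with duplex 2, an estimate of −0.46 log2 units (SE 0.0647, edgeR adjusted p = 0.00209). NDUFB10, an accessory subunit of the membrane arm (ENSG00000140990.10, chr16:2009539-2011976, plus strand), had 106 and 108 CPM with duplex 1 and 80.7 and 82.8 CPM with duplex 2, an estimate of −0.38 log2 units (SE 0.0586, edgeR adjusted p = 0.00367). Neither call remained when either library of duplex 2 was left out, but those fits called 0 of all genes, and the median of the members in them was −0.15 and −0.21. Without 1 or the other library of duplex 1, 13 and 9 members were called among 1340 and 2056 genes. In these fits the lone library is assumed to vary like the pair. At 0.05, 16 members were lower in duplex 2, against 5.35% of all genes, and COX6B2 was higher by 1.30 log2 units (edgeR adjusted p = 0.0134). With NFE2L2 siRNA these 2 genes had 47.6, 46.1 and 41.8 CPM for NDUFA2 and 84.2, 84.6 and 83.5 CPM for NDUFB10. The values of NDUFA2 thus lay between the control duplexes, and those of NDUFB10 just above duplex 2.

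**Figure D5:**
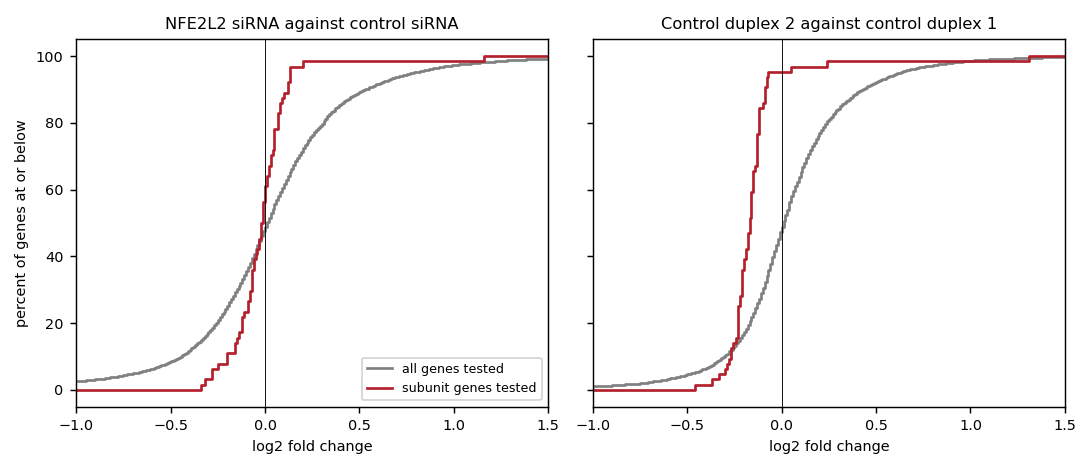
Percent of genes (y axis) at or below each log2 fold change (x axis) for all genes tested (grey) and tested members (red), for NFE2L2 siRNA against control siRNA and for control duplex 2 against control duplex 1. In the first panel the members cross the middle near 0 (median −0.02), and in the other panel near −0.17.

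The sign of the median depended on the control duplex. Against control duplex 1 alone the median member was at −0.13, with 55 lower and 9 higher, and against control duplex 2 alone it was at 0.06, with 15 lower and 49 higher. The 2 comparisons share the NFE2L2 libraries, and neither called a member. Across 19 fits, 21 members kept their sign (14 lower and 7 higher) and 43 did not. NDUFAB1, NDUFA12, NDUFV2 and COX5A were among those lower in every fit and NDUFA3, SDHA and COX6B2 among those higher. Without NFE2L2 duplex 1 the median was −0.11, with 52 lower and 12 higher, and 3 of 64 members passed 0.05 though not 0.01, against 10.8% of all genes in that fit: NDUFAB1, NDUFB3 (−0.35, adjusted p = 0.0482) and COX6B2 (1.60, adjusted p = 0.0421).

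Other genes of the pathway were described from lists by function. Over all genes tested 48.7% were lower with NFE2L2 siRNA and 25% had an unadjusted p under 0.05, and over the 198 tested genes of the 10 lists 52 had such a p. The complex I assembly factors (19 genes), which build the enzyme, had a median log2 fold change of −0.21 with 18 lower and 0 past the threshold in edgeR, 7 of them at an unadjusted p under 0.05. Their summed level was 558 to 655 CPM with NFE2L2 siRNA and 659 to 751 CPM with control siRNA, so that the groups did not overlap. Between the control duplexes the same list had a median of −0.12. For complex III assembly factors all 6 genes were lower, with a median of −0.33, 0 past the threshold and 3 at an unadjusted p under 0.05, and summed levels of 196 to 217 CPM against 240 to 268 CPM. The 4 complex II assembly factors had a median of −0.21, with 0 past the threshold and 1 at an unadjusted p under 0.05. Their summed levels were 48.8 to 51.3 CPM with NFE2L2 siRNA and 56.0 to 62.0 CPM with control siRNA. Between the control duplexes the complex III and complex II lists had medians of −0.12 and −0.13. The sums of these lists are descriptions without a test of the list.

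Of 23 complex IV assembly factors, 1 passed. COA6, which is known for a part in copper delivery to complex IV, had 1394, 1164 and 1294 reads with the NFE2L2 duplexes and 2140, 2229, 1738 and 1991 reads in the controls. All NFE2L2 libraries lay below all controls, and COA6 fell by 0.73 on the log2 scale (SE 0.130, edgeR adjusted p = 0.00902). The call did not hold in 9 of the 18 alternatives, where the adjusted p ran from 0.0134 to 0.132. The list had a median of −0.13, with 17 lower. Its summed levels overlapped, at 1344 to 1563 CPM with NFE2L2 siRNA and 1471 to 1608 CPM with control siRNA.

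No gene of the other lists passed the threshold in edgeR, while over all of the pathway lists DESeq2 called 10 genes, against 7.38% of all genes with an adjusted p in that fit, and limma-voom 1. The mitochondrial ribosome, which translates the subunits encoded in mitochondrial DNA, had 75 tested genes with a median of −0.18. Of these, 66 were lower and 25 had an unadjusted p under 0.05, against 48.7% and 25% of all genes tested. The summed level of the list was 3492 to 4049 CPM with NFE2L2 siRNA and 4073 to 4614 CPM with control siRNA, without overlap and without a test. In the other lists of this paragraph the sums of the 2 groups overlapped. ATP synthase (18 tested) had a median of −0.04 with 1 at an unadjusted p under 0.05, the TCA cycle (13) one of −0.05 with 1, and the electron carriers and coenzyme Q enzymes (15) one of −0.14 with 5. The 12 regulators had a median of 0.01 with 3 at an unadjusted p under 0.05. PPARGC1A, named after its value was seen, had the lowest adjusted p of the list (0.61 log2 units, edgeR adjusted p = 0.0163). It had 59.1, 56.1 and 75.1 CPM with the NFE2L2 duplexes and 46.9, 38.7, 41.6 and 38.9 CPM in the controls. Of the factors behind the motifs, named here after their values were seen, NRF1 was at −0.12 and YY1 at 0.02. The subunits of GABP had opposite signs, GABPA, which binds DNA, at 0.28 (edgeR adjusted p = 0.287) and its partner GABPB1 at −0.80 (edgeR adjusted p = 0.0308). Both also differed between the control duplexes, GABPA at 0.53 (edgeR adjusted p = 0.00179) and GABPB1 at −0.61 (edgeR adjusted p = 0.00187) in duplex 2. So did the regulator ESRRA, at −0.47 in duplex 2 (edgeR adjusted p = 0.00197), which was at −0.21 with NFE2L2 siRNA (edgeR adjusted p = 0.481). The 13 subunits encoded in mitochondrial DNA had a median of 0.05, with 4 lower, 0 past the threshold and 0 at an unadjusted p under 0.05. Their reads made up 0.330% to 0.393% of gene counts in the 7 libraries, with overlapping groups.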

How the data were processed

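Strand-specific total RNA libraries (ribosomal RNA depleted) of A549 cells were sequenced by the authors. The authors deposited raw counts: HISAT 0.1.6 alignments to hg19 were assigned to GENCODE v19 genes by HTSeq 0.6.0 (reverse strand, intersection-strict), without normalization, so reads fitting 2 genes were not assigned. Members, positions, transcript and exon lengths and shared exon bases were taken from GENCODE v44 mapped to GRCh37. Exon bases annotated only after v19 thus enter the lengths, although reads on them were not counted for the gene. The members and all lists were chosen with earlier results of these data known.

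Unassigned reads were left out. Testing covered genes reaching 10 reads in any of the 7 siRNA libraries, with edgeR 4.0.16 (R 4.3.3; TMM, quasi-likelihood, two-sided, Benjamini-Hochberg over all tested genes, threshold 0.01). The mock library was described only. A tested member and a marker gene are counted but not reported here by name. CPM are TMM-scaled, and log2 levels add 0.5 CPM. Single values were also compared by exact permutation over 35 divisions of the libraries. The tests were checked on simulated counts. Named were the members past the threshold, the extremes of each complex, core subunits, isoform families, untested members, extreme levels, called pathway genes and members differing between control duplexes; other genes were named after their values were seen. Alternatives were DESeq2 1.42.0, limma-voom (limma 3.58.1), other scalings, filters, controls and thresholds, and omission of each library. Omission of control libraries from the comparison of control duplexes, the canonical transcript as length and the background of genes with at least 500 reads were chosen after seeing the data.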

Additional observations from a re-analysis of the deposited data

How the results depend on the processing

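No member passed the threshold of 0.01 in the NFE2L2 siRNA comparison under any alternative run. The median of the members was −0.133 with control duplex 1 alone and 0.0644 with control duplex 2 alone, against −0.0202 with both. For all genes the calls were 491, and 1314 with DESeq2, 1019 with a filter of 1 read, 120 and 59 with control duplex 1 or 2 alone, 78 with the transfections of each control duplex summed, 772 with the mock added, 1456 at 0.05 and 163 to 915 with a library left out (915 without NFE2L2 duplex 2). For the pathway lists the 1 call became 10 with DESeq2, 5 with the filter of 1 read, 4 with the mock added, 11 at 0.05, 0 with either control duplex alone or summed, and 0 to 2 with a library left out. Between control duplexes, members called were 2, and 5 with DESeq2, 0 with the filter of 1 read (4 of all genes, against 566), 17 at 0.05 (1736 of all genes) and 0 to 13 with a library left out (0 to 2056 of all genes), while the split of 61 lower and 3 higher members held in each. The causes were not tested. Median levels per length of complexes I, II, III and IV were 43.9, 53.5, 86.9 and 136 with the longest transcript, 20.4, 23.7, 49.8 and 76.0 with the union of exons and 65.1, 56.8, 86.9 and 208 with the canonical one. Library size alone moved the median of all genes to 0.04 and that of the members to 0.01, with 29 lower and 35 higher. NFE2L2 passed the threshold in all fits but those with 1 control duplex alone or with duplexes summed (adjusted p 0.0229 to 0.0259). No paired analysis was possible because the NFE2L2 and control groups have no duplex in common and only the controls were repeated, so that no number ties a library of one to a library of the other. Members below 10 reads and those sharing exons are limited by depth and counting.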
